A study of Mus musculus with 15 samples.

Results

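The gene set described here is the transcription factor gene Myc together with 38 genes for nucleolar factors that build ribosomes. Its 39 members are those of a list of gene names, and the rule itself uses no measured value. The list was, however, chosen with earlier results of these data known. Counts of members set beside the share of all features are therefore descriptive. They are 39 of the 34554 genes and added sequences for which counts were summed, and all 39 passed the filter on low counts. By role they comprise 1 transcription factor (Myc), 2 RNA polymerase I subunits, 7 proteins of small nucleolar ribonucleoprotein particles (snoRNPs), 9 small subunit assembly factors, 15 large subunit assembly factors and 5 nucleolar proteins with several functions.

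The libraries come from organoids of normal mouse pancreatic duct, epithelial cultures grown in Matrigel, that were engineered for CA19-9, a carbohydrate epitope which mice do not make and which is used as a blood marker of pancreatic disease. Of 5 organoid lines, 3 (A217, A220 and A225) hold every allele required for CA19-9 and are called CA19-9 inducible, and 2 (A218 and A223) lack a required allele and are called genetic negative. Each line was sequenced without doxycycline (0 h) and after 4 h and 24 h with doxycycline at 1 µg/ml, which gave 15 libraries in 6 groups of 3 or 2. All cultures received new medium 24 h before a joint harvest, and the sources used here do not say if the 0 h cultures received the solvent of the drug. The labels name neither the promoters of the alleles nor the animals behind a line. The p-values rest on how far these lines differ in level or, where the libraries of a line are paired, in their change.

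MYC binds DNA as a heterodimer with MAX, often at the sequence CACGTG called the E-box, and is known for raising the output of ribosomes in growing cells. Ribosome assembly starts in the nucleolus. There RNA polymerase I transcribes the ribosomal RNA precursor, snoRNPs guide its chemical modification and cleavage, and assembly factors shape the precursors of the small and large subunits before these leave for the cytoplasm. In the pancreas, MYC is known as a driver of proliferation and of tumour growth.

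Totals were 47915632 to 59411540 estimated counts per library. The 12 pairs of libraries within a group differed by 14.77 to 43.22 chi-square units per degree of freedom, so none of these pairs agreed within sampling noise. The sequence of EGFP, one of the added sequences, stood at 259 to 385 CPM (counts scaled to the size of the library) in the inducible lines with doxycycline and at 0.737 CPM or less in all other libraries, and that of the doxycycline-dependent activator rtTA3 stood at 75.6 to 201 CPM in both genotypes. All 12 duct markers were detected, with 10200 to 17300 CPM in sum, while 10 acinar, 10 endocrine, 10 mesenchymal and 10 immune and endothelial markers summed to at most 3.09, 0.325, 8.05 and 9.78 CPM. Of 4 acinar, 6 mesenchymal and 5 immune and endothelial markers that passed the filter, 0 were called by edgeR or DESeq2 at 4 h or 24 h over both genotypes, with at most 1 of a list at an unadjusted p below 0.05, and no endocrine marker passed it. Between 4 h and 24 h the immune marker Cd68, at 0.986 to 1.97 CPM, was called lower (-0.53, edgeR adjusted p = 0.0401). With the line as a block the mesenchymal genes Col3a1 and Acta2 were higher at 24 h, at no more than 1.25 and 0.903 CPM in any library. At 0 in every library were the acinar genes Ptf1a and Cpa1 and the endocrine genes Ins1, Ins2, Gcg, Ppy and Neurog3.

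The members were expressed in all libraries. In TPM, a level that accounts for transcript length as well as library size, the nucleolar chaperone Npm1 stood highest with a mean of 2050 TPM (1810 to 2370 over the 15 libraries). The core proteins of box C/D snoRNPs, which carry out 2'-O-methylation of RNA, came next: Nop58 averaged 363 TPM, Nop56 256 TPM and the methyltransferase Fbl 158 TPM. The ranges of Fbl (130 to 183 TPM) and the next gene in the order, nucleolin Ncl (104 to 174 TPM), overlapped. Myc was in place 23 of 39, with 49.4 TPM on average and 39.8 to 64.3 TPM over the libraries. The large subunit factor Urb1 was lowest at 11.4 TPM (7.78 to 14). Within places 4 to 38 the ranges of successive members overlapped, whereas the ranges of the first 3 members and of Urb1 overlapped no other.

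**Figure D1:**
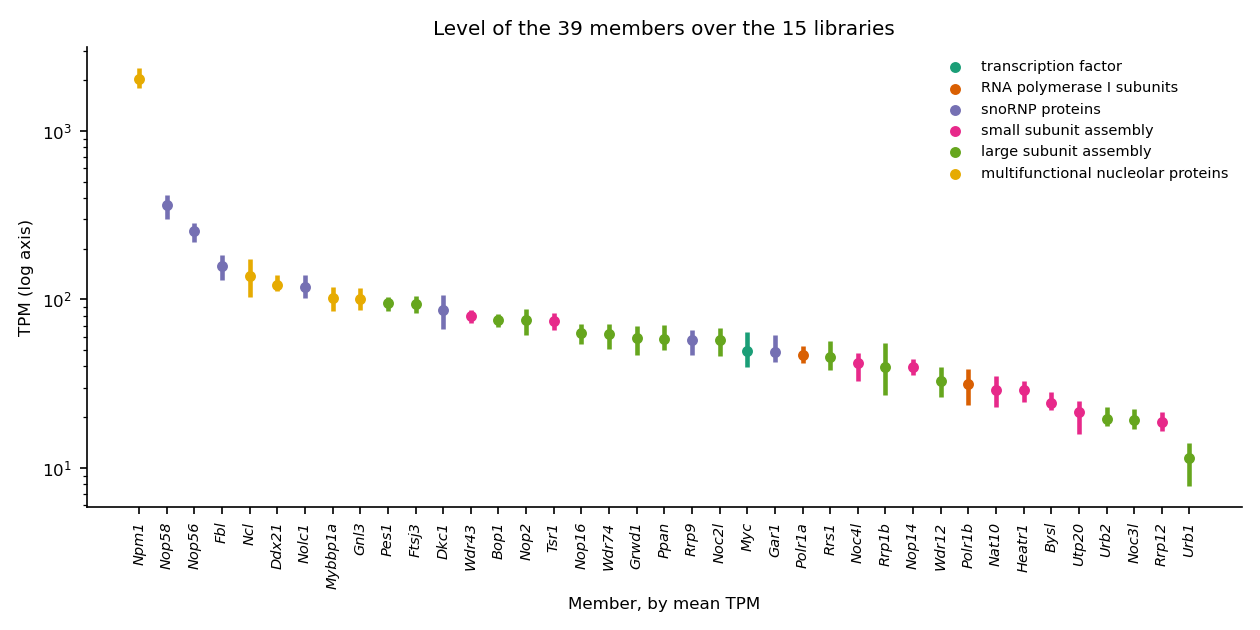
Mean (points) and lowest to highest value (bars) of each of the 39 members over the 15 libraries, in TPM on a log axis, coloured by role and ordered by mean. Npm1 stands apart at 1810 to 2370 TPM, and Urb1 is lowest at 7.78 to 14 TPM.

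Myc fell within 4 h of doxycycline in both genotypes and had partly returned at 24 h. In the inducible lines A217, A220 and A225 its level was 68.5, 78.6 and 70.2 CPM at 0 h, 51.3, 57.2 and 51.8 CPM at 4 h and 64.8, 72.1 and 64.7 CPM at 24 h. In the negative lines A218 and A223 it was 71.5 and 80.7 CPM at 0 h, 51.2 and 51.0 CPM at 4 h and 61.5 and 66.8 CPM at 24 h. Every 4 h library lay below every 0 h library, whereas the 24 h libraries overlapped those of 0 h.

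Averaged over the genotypes, Myc (chr15:61985391-61990374 on the plus strand of GRCm38) fell by 29.6% at 4 h, a log2 fold change of -0.51 ± 0.06 (SE; edgeR quasi-likelihood adjusted p = 0.000649, lower in 5 of 5 lines). The fall was -0.44 ± 0.07 in inducible lines (n = 3, edgeR adjusted p = 0.0205) and -0.57 ± 0.09 in negative lines (n = 2, edgeR adjusted p = 0.0207). Over the 10 fits that each leave out 1 library, the change averaged over genotypes stayed called, with edgeR adjusted p between 0.000855 and 0.00837. In inducible lines alone edgeR adjusted p reached 0.128, and the call was lost without the 4 h library of A217 or A225 or the 0 h library of A220 or A225. In negative lines leaving out 1 library leaves a group of 1, which is assumed to vary like the other groups, and edgeR adjusted p was then 0.0714 to 0.45.

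From 4 h to 24 h Myc rose by 0.33 ± 0.06 on the log2 scale over both genotypes (edgeR adjusted p = 0.00227, higher in 5 of 5 lines). At 24 h it remained lower than at 0 h by a log2 fold change of -0.18 ± 0.06 (edgeR adjusted p = 0.0452, lower in 5 of 5 lines). That last call was lost in 6 of the 10 fits without 1 library, where edgeR adjusted p reached 0.202. With the line as a block it was -0.18 with edgeR adjusted p = 0.000879.

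**Figure D2:**
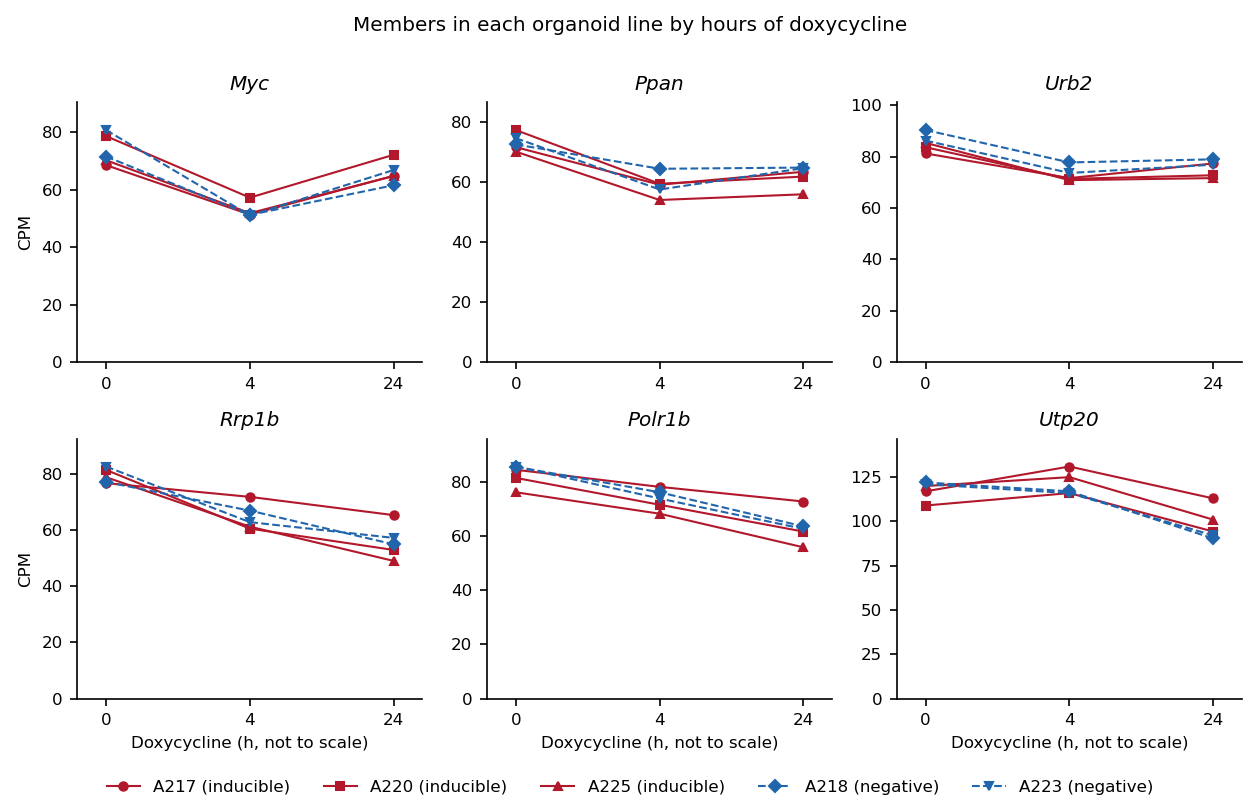
CPM of 6 members in each of the 5 organoid lines at 0, 4 and 24 h of doxycycline (time axis not to scale; solid red lines inducible, dashed blue lines negative). Myc is at 68.5 to 80.7 CPM at 0 h and at 51.0 to 57.2 CPM at 4 h, while Rrp1b and Polr1b are lowest at 24 h in all 5 lines.

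At 4 h, 4 members besides Myc were lower, 3 of them large subunit factors. Over both genotypes 5 of 39 members were called, all lower, against 0.383% of all 16462 tested features called lower (edgeR, adjusted p below 0.05). The 4 were Urb2 and Ppan, both needed for early large subunit precursors, Rrs1, which helps to place the 5S ribosomal RNA, and Tsr1, a late small subunit factor. With the organoid line as a block, which pairs the libraries of a line, 18 members were called lower and 1 higher, where 4.92% of all features were called lower and 3.75% higher. The median log2 fold change of the 39 members was -0.11 and 36 were below 0, beside a median of 0.00 and 48.8% below 0 for all tested features.

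Ppan (chr9:20888175-20892178, plus strand) was at 71.6, 77.3 and 70.1 CPM at 0 h in A217, A220 and A225 and at 59.1, 59.4 and 54.0 CPM at 4 h. In A218 and A223 it went from 72.5 and 74.6 CPM to 64.4 and 57.5 CPM, so that the 2 times did not overlap. Its log2 fold change over both genotypes was -0.31 ± 0.05 (edgeR adjusted p = 0.0109). The call was lost, with edgeR adjusted p up to 0.0933, without the 0 h library of A218 or A223 or the 4 h library of A223.

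Urb2 (chr8:124021508-124048505, plus strand) was at 81.2, 83.6 and 85.3 CPM at 0 h and at 71.6, 71.3 and 70.8 CPM at 4 h in the inducible lines, and went from 90.3 and 86.2 to 77.7 and 73.6 CPM in A218 and A223. Here too every 4 h library was below every 0 h library. The log2 fold change was -0.23 ± 0.03 (edgeR adjusted p = 0.00591, and 0.0541 without the 0 h library of A218). Of the Urb2 counts, 39.8% (A223 at 24 h) to 56.2% (A223 at 4 h) were assigned to a transcript annotated for nonsense-mediated decay. The fall is thus one of the summed counts of the gene's 2 transcripts. It does not say that each of them fell, and the coding transcript was not tested alone. Rrs1 was at 61.2 to 73.1 CPM at 0 h and 48.5 to 59 CPM at 4 h over the 5 lines, and Tsr1 at 154 to 170 CPM and 135 to 149 CPM, again without overlap. They changed by -0.30 ± 0.06 and -0.21 ± 0.04 with edgeR adjusted p of 0.0383 and 0.035, and each lost its call in 8 of 10 fits without 1 library. Exons of Tsr1 share 1240 bases with Srr on the opposite strand, a gene at 8.5 CPM, and the sources used here do not say if reads were assigned by strand. In all, exons of 13 members share 5 to 1240 bases with a gene on the other strand.

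In inducible lines alone, 3 members were called lower at 4 h, Myc, Ppan (-0.34) and Urb2 (-0.23), where 0.0729% of all features were. Ppan and Urb2 lost that call in each of the 6 fits without 1 library (edgeR adjusted p 0.0825 to 0.232). The block added the lower calls Rrs1 (-0.29), Grwd1 (-0.28), Nop2 (-0.25), Nop56 (-0.16), Nolc1 (-0.17), Tsr1 (-0.17) and Rrp1b (-0.30), for 10 in all against a background of 1.72%. In negative lines Myc alone was called (background 0.0243%), and with the block also Rrs1 (-0.32), Tsr1 (-0.24), Ppan (-0.27), Nop2 (-0.27) and Urb2 (-0.22), which makes 6 against 1.24%. So Myc, Ppan, Urb2, Rrs1, Tsr1 and Nop2 were lower at 4 h in each genotype in the paired fit. Without 1 line that fit gave 2 (without A220) to 10 calls in inducible lines, 1 (without A223) to 7 in negative lines and 9 (without A223) to 15 over both. Averaged over both genotypes, it further called Polr1b (-0.17), Gnl3 (-0.19), Rrp12 (-0.17), Ddx21 (-0.11), Nop16 (-0.13), Wdr74 (-0.17), Wdr43 (-0.10) and Bysl (-0.15) lower.

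Noc3l, which works with Noc2l on large subunit precursors, moved the other way at 4 h. It was at 46.7 to 51.9 CPM at 0 h and at 52.7 to 58.5 CPM at 4 h, higher in all 5 lines. Its log2 change over both genotypes was 0.12 and passed only with the block. By 24 h it had come back to 45.6 to 50 CPM, and its fall from 4 h to 24 h was called (-0.17 ± 0.05, edgeR adjusted p = 0.0196, and up to 0.087 without the 4 h or 24 h library of A223).

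After 24 h most of the ribosome assembly genes were lower than at 0 h. Over both genotypes 24 of 39 members were called, all lower, where 7.83% of all tested features were called lower, and with the block 36 were, against 15.4%. The falls were small: among the 24 called members they ran from 7.73% for the RNA helicase Ddx21 to 29.6% for Rrp1b. In every line of the 5, 37 or 38 of the 39 members were lower at 24 h than at 0 h, and 33 members were lower in all 5 lines. The median log2 change of the members in a line was -0.11 in A217, -0.21 in A220, -0.24 in A225, -0.19 in A218 and -0.21 in A223, beside 0.005 to 0.013 for all tested features in the same lines. Leaving out 1 library in turn gave 16 to 29 calls, and leaving out 1 line in turn from the paired fit gave 31 to 34.

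**Figure D3:**
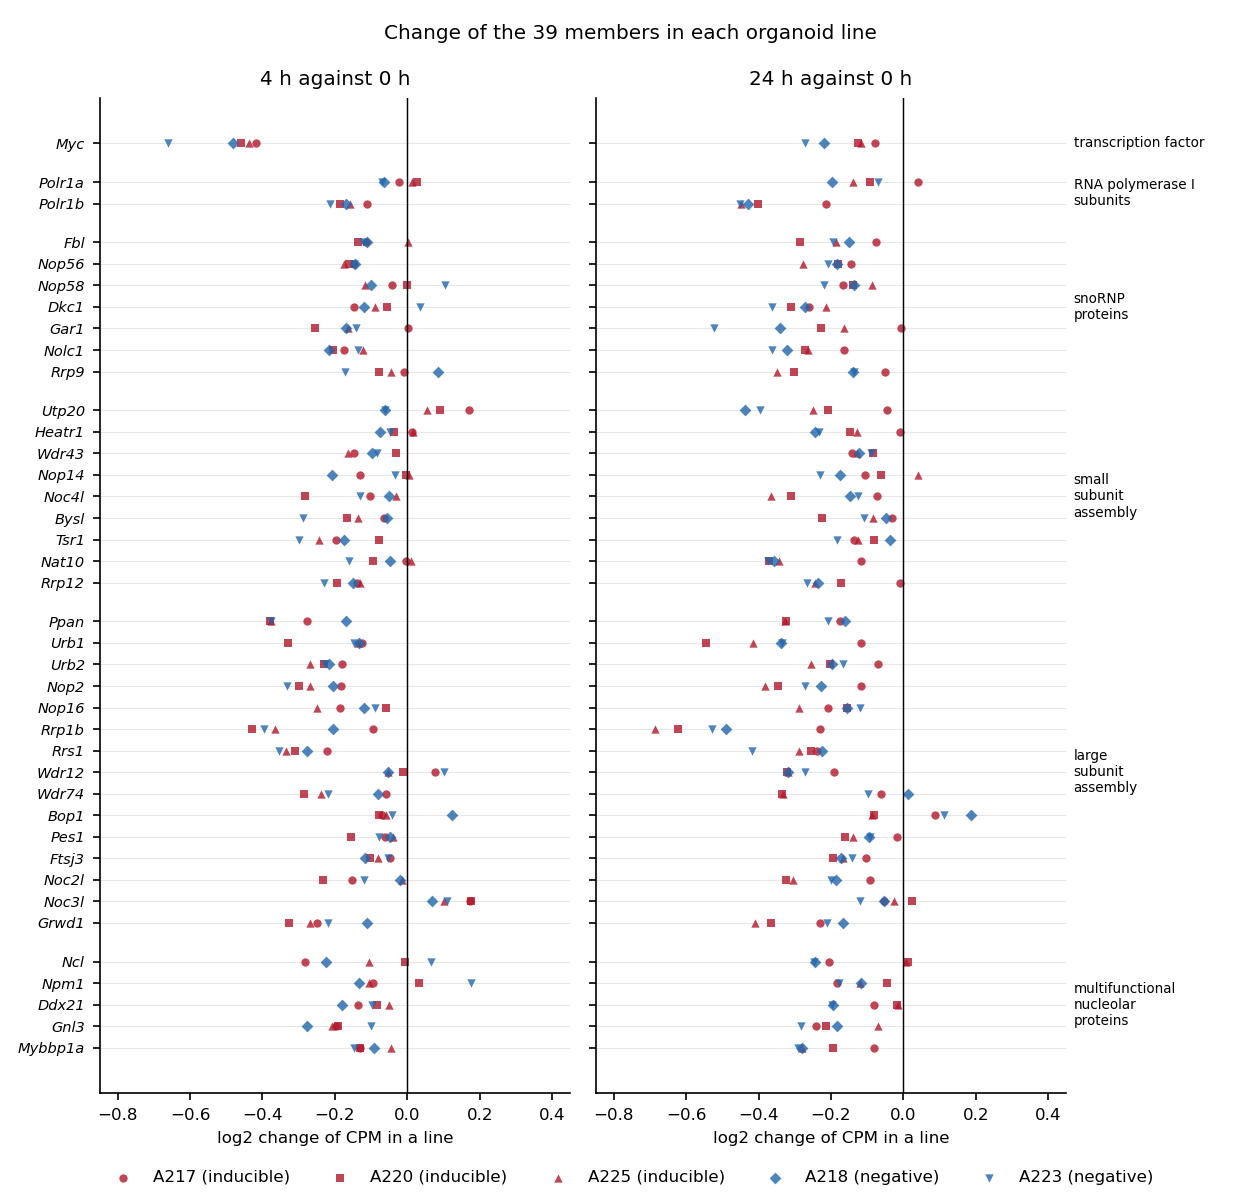
Log2 change of CPM from 0 h to 4 h (left) and from 0 h to 24 h (right) for each of the 39 members, grouped by role, with 1 point per organoid line. At 4 h Myc stands farthest to the left in every line, and at 24 h 33 members lie below 0 in all 5 lines.

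Of the RNA polymerase I subunits, Polr1b fell and Polr1a, the catalytic subunit, did not pass without the block. Polr1b (chr2:129100995-129126594, plus strand), the second-largest subunit, was at 84.4, 81.4 and 76.1 CPM at 0 h, 78.1, 71.5 and 68.2 CPM at 4 h and 72.7, 61.6 and 55.8 CPM at 24 h in A217, A220 and A225. The negative lines had it at 85.5 and 85.6 CPM, then 76.1 and 73.8 CPM, then 63.5 and 62.6 CPM. Each line declined at both steps, by a log2 fold change of -0.39 ± 0.06 from 0 h to 24 h (edgeR adjusted p = 0.00173). Polr1a changed by -0.10, called only with the block, and most of its counts (61.7% to 68.3% as group means) were assigned to transcripts annotated for nonsense-mediated decay rather than to protein-coding ones (14.2% to 20%). Over the 3 times in order, inducible lines had 61.7% ± 2.23, 65.2% ± 0.762 and 68.3% ± 1.68 of counts on decay transcripts (SD, n = 3) and negative lines 63.4% ± 3.19, 64.7% ± 0.669 and 66.5% ± 3.44 (SD, n = 2), and the change was not tested.

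Of the 7 snoRNP proteins, 5 were called lower at 24 h, and all 7 with the block. Nolc1 (chr19:46075863-46085530, plus strand), a chaperone of snoRNPs, lay between 204 (A225) and 220 CPM (A218 and A223) in the 5 lines at 0 h. At 4 h it was at 193, 180 and 187 CPM in A217, A220 and A225 and at 189 and 201 CPM in A218 and A223, and at 24 h at 194, 172 and 170 CPM and at 177 and 171 CPM. All 24 h libraries were below all 0 h libraries, and the log2 fold change was -0.29 ± 0.04 (edgeR adjusted p = 0.00112). Dkc1, the pseudouridine synthase of H/ACA snoRNPs, fell by 18.1%, Nop56 by 12.8% and Fbl by 11.5%. Nop58 (-0.15) and Rrp9 (-0.18), a U3 snoRNP protein, passed only with the block.

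Gar1 (chr3:129824912-129831396, minus strand), a partner of dyskerin in H/ACA particles, was called lower at 24 h over both genotypes. The log2 fold change was -0.28 ± 0.06 (edgeR adjusted p = 0.0107, lower in 5 of 5 lines). Taken by genotype, Gar1 was called in the negative lines and not in the inducible lines. It was at 17.7 and 19.2 CPM in A218 and A223 at 0 h, at 15.7 and 17.4 CPM at 4 h and at 14 and 13.3 CPM at 24 h, which gave -0.43 ± 0.10 (edgeR adjusted p = 0.0329, and 0.115 to 0.233 without 1 library, which leaves a group of 1). In A217, A220 and A225 it was at 15.5, 18.5 and 16.1 CPM at 0 h, 15.5, 15.5 and 14.4 CPM at 4 h and 15.4, 15.8 and 14.4 CPM at 24 h. The 24 h libraries thus lay apart from those of 0 h in negative lines and overlapped them in inducible lines. Between 28.5% and 35.2% of Gar1 counts, as group means, lay on a retained-intron transcript.

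Among the 9 small subunit factors, 4 were called at 24 h (Utp20, Nat10, Rrp12 and Heatr1) and 8 with the block. Utp20 (chr10:88746607-88826804, minus strand), a scaffold of the early small subunit precursor, was at 117, 109 and 120 CPM at 0 h, 131, 116 and 125 CPM at 4 h and 113, 94.3 and 101 CPM at 24 h in A217, A220 and A225. In A218 and A223 it was at 122 and 121 CPM, then 117 and 116 CPM, then 90.4 and 92.1 CPM. At 4 h it was higher than at 0 h in the 3 inducible lines and lower in the 2 negative lines, and at 24 h it was lower than at both earlier times in every line. The changes over both genotypes were -0.29 ± 0.05 from 0 h (edgeR adjusted p = 0.00276) and -0.31 ± 0.05 from 4 h (edgeR adjusted p = 0.00172). Nat10, an RNA acetyltransferase, fell by 19.8% (edgeR adjusted p = 0.0102), Rrp12 by 12.6% and Heatr1 by 10.8%. Bysl, which acts on late small subunit precursors, was called at 24 h in neither fit.

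Of the 15 large subunit factors, 10 were called lower at 24 h and 13 with the block, and among them Rrp1b had the largest fall of the 24 members called. Rrp1b (chr17:32036100-32062865, plus strand), a gene for a nucleolar protein related to yeast Rrp1, was at 76.7, 81.4 and 78.8 CPM at 0 h, 71.8, 60.5 and 61.2 CPM at 4 h and 65.3, 52.9 and 49.0 CPM at 24 h in A217, A220 and A225. The levels in A218 and A223 were 77.1 and 82.6 CPM, then 66.9 and 62.8 CPM, and 54.9 and 57.2 CPM. No library with doxycycline reached the lowest 0 h library, and each line declined at both steps. The log2 fold change at 24 h was -0.51 ± 0.07 over both genotypes (edgeR adjusted p = 0.000912), -0.50 ± 0.09 in inducible and -0.51 ± 0.11 in negative lines. In inducible lines edgeR adjusted p was 0.0113, and 0.0565 without the 24 h library of A220. Retained-intron transcripts held 21.3% (A220 at 4 h) to 34.9% (A217 at 0 h) of the Rrp1b counts, and the coding transcripts were not tested alone.

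Urb1 (chr16:90751527-90810413, minus strand), a scaffold of the large subunit precursor, went from 46.2, 47.7 and 44.9 CPM at 0 h to 42.4, 38.0 and 40.9 CPM at 4 h and 42.6, 32.7 and 33.7 CPM at 24 h in A217, A220 and A225. Lines A218 and A223 went from 46.7 and 47.4 to 42.6 and 42.8 and then to 37.0 and 37.6 CPM. Its fall was 21.2% at 24 h (edgeR adjusted p = 0.00526), and A217 changed least. Grwd1 (chr7:45825223-45830944, minus strand), a chaperone of the ribosomal protein uL3, was at 80.7, 81.7 and 74.9 CPM at 0 h, 67.9, 65.1 and 62.1 CPM at 4 h and 68.8, 63.4 and 56.3 CPM at 24 h in the inducible lines. In A218 and A223 it was at 79.1 and 74.8 CPM, 73.2 and 64.3 CPM, and 70.4 and 64.7 CPM, so that 0 h and 24 h did not overlap. The fall of Grwd1 was 16.5% (edgeR adjusted p = 0.011, and 0.0512 without the 24 h library of A223).

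The proteins PES1, BOP1 and WDR12 form one complex of the large subunit pathway. Of their genes, Wdr12 was called at 24 h in both fits, Pes1 only with the block and Bop1 in neither. Wdr12 (chr1:60069785-60098645, minus strand) was at 58.8, 56.8 and 57.6 CPM at 0 h, 62.0, 56.3 and 55.5 CPM at 4 h and 51.5, 45.4 and 46.1 CPM at 24 h in A217, A220 and A225. Its levels in A218 and A223 were 57.7 and 58.3 CPM, 55.6 and 62.4 CPM, and 46.3 and 48.2 CPM. It was lower at 24 h than at both earlier times, by -0.29 ± 0.05 from 0 h (edgeR adjusted p = 0.00301) and -0.30 ± 0.05 from 4 h (edgeR adjusted p = 0.00203). The change of Pes1 at 24 h was -0.10. Bop1, at 117 to 127 CPM at 0 h and 111 to 134 CPM at 24 h, was the 1 member with a log2 change above 0 at 24 h (0.06). The differences between the 3 genes were not tested.

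The other large subunit factors called at 24 h were Rrs1 (-0.29), the RNA methyltransferase gene Nop2 (-0.26), Ppan (-0.23), Urb2 (-0.18), Nop16 (-0.18) and Ftsj3 (-0.15). Ppan was at 63.4, 61.8 and 55.9 CPM at 24 h in A217, A220 and A225 and at 64.8 and 64.6 CPM in A218 and A223, and Urb2 at 77.3, 72.7 and 71.6 CPM and at 78.9 and 76.8 CPM. Both genes stood at 24 h near their 4 h levels, though slightly higher in all 5 lines. The log2 changes from 4 h were 0.008 to 0.167 for Ppan and 0.016 to 0.11 for Urb2. Neither gene was called between 4 h and 24 h in either fit. The block alone gave calls for Noc2l (-0.22) and Wdr74 (-0.14), and Noc3l was not called at 24 h.

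Of the 5 nucleolar proteins with several functions, Mybbp1a, Gnl3 and Ddx21 were called lower at 24 h. Mybbp1a (chr11:72441355-72451768, plus strand), a regulator of nucleolar transcription, was at 292, 297 and 280 CPM at 0 h, 267, 271 and 271 CPM at 4 h and 275, 259 and 231 CPM at 24 h in A217, A220 and A225, and at 312 and 321, 293 and 290, and 257 and 262 CPM in A218 and A223. The change over both genotypes was -0.23 ± 0.04 (edgeR adjusted p = 0.00421), and 131 bases of its exons overlap Spns2 on the other strand (126 CPM). Gnl3, the nucleostemin gene, fell by 13.2%. Ncl (-0.15) and Npm1 (-0.13) passed only with the block. Most Ncl counts (65.5% to 67.6% as group means) were assigned to a retained-intron transcript, and how reads of Npm1 were shared with its processed pseudogenes was not tested.

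Taken by genotype at 24 h, 9 members were called lower in inducible lines (background 1.49%) and 6 in negative lines (background 1.06%). The 9 were Rrp1b, Grwd1, Ppan, Wdr12, Polr1b, Nolc1, Urb2, Urb1 and Nop2, with log2 fold changes from -0.50 to -0.18, and the 6 were Utp20, Nolc1, Rrp1b, Polr1b, Gar1 and Mybbp1a, from -0.51 to -0.28. With the block the counts were 24 (background 10.2%) and 25 (background 8.83%). The unpaired count in inducible lines was 25 without the 24 h library of A217 and between 0 and 25 over the 6 libraries left out, and in negative lines, where a group then holds 1 library, it was 0. In the paired fit without 1 line the counts were 13 to 27 and 7 to 27. The lowest of these came without A220 in inducible and without A223 in negative lines.

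Members called at 24 h only in the paired fit were, in inducible lines, Rrs1 (-0.26), Nop56 (-0.20), Dkc1 (-0.26), Nat10 (-0.28), Nop16 (-0.22), Ftsj3 (-0.15), Wdr74 (-0.24), Noc2l (-0.24), Utp20 (-0.17), Mybbp1a (-0.18), Fbl (-0.18), Noc4l (-0.25), Rrp9 (-0.23), Gnl3 (-0.17) and Wdr43 (-0.12). In negative lines they included Rrs1 (-0.32), Nat10 (-0.37), Dkc1 (-0.32), Wdr12 (-0.30), Heatr1 (-0.24), Myc (-0.25), Ddx21 (-0.20), Nop2 (-0.25), Urb1 (-0.34), Rrp12 (-0.25), Gnl3 (-0.23), Ncl (-0.25) and Nop14 (-0.20). The remaining ones there, Nop56, Ftsj3, Urb2, Grwd1, Ppan and Fbl, changed by -0.20 to -0.16. Over both genotypes the paired fit also called Noc4l (-0.19), Wdr43 (-0.11), Tsr1 (-0.11) and Nop14 (-0.12).

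Between 4 h and 24 h Myc rose, while most other members were lower or changed little. Over both genotypes, 7 were called lower at 24 h than at 4 h (Utp20, Wdr12, Noc3l, Dkc1, Nat10, Polr1b and Heatr1), where 8.24% of all features were called lower, and Myc was the 1 called higher, where 11.3% were. Utp20, Wdr12 and Myc kept their calls in each of the 10 fits without 1 library. With the block 14 were called lower (background 15.9%), among them Nolc1 (-0.12), Rrp1b (-0.21), Mybbp1a (-0.12), Urb1 (-0.18), Nop58 (-0.13), Ftsj3 (-0.07) and Rrp9 (-0.14), and Tsr1 (0.09) joined Myc as higher (background 21.2%). The median log2 change from 4 h to 24 h was -0.07 with 31 of 39 members below 0.

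The response of the members was not found to differ between the genotypes. No member was called for the difference of the 4 h or the 24 h response, without or with the block, while 0.0121% of all features were called at each time without it and 0.0182% and 0.0243% with it. At an unadjusted p below 0.05 there were 0 members at 4 h and 3 at 24 h (edgeR), 1 and 6 with the block, and 0 and 3 by DESeq2, which called 0 at either time. The estimated differences, inducible minus negative, ran from -0.12 (Grwd1) to 0.17 (Utp20) at 4 h and from -0.20 (Wdr74) to 0.30 (Gar1) at 24 h on the log2 scale. For Myc the difference was 0.14 at 4 h (95% interval -0.11 to 0.38) and 0.14 at 24 h (-0.11 to 0.38), and with the block 0.13 (-0.01 to 0.28) and 0.14 (-0.003 to 0.28).

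The 3 members past an unadjusted 0.05 at 24 h were Utp20 (0.25, 95% interval 0.03 to 0.47), Ddx21 (0.16, 0.02 to 0.30) and Gar1 (0.30, 0.02 to 0.58), each with a larger fall in negative lines, and edgeR adjusted p was 1.0 for each. Before doxycycline no member was called between inducible and negative lines, and no feature was (0.0%). There 1 member, Bysl, had an unadjusted p below 0.05 by edgeR, and DESeq2 called 0 with 3 below that level. The largest differences at 0 h were -0.21 for Ncl and 0.17 for Noc2l on the log2 scale.

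**Figure D4:**
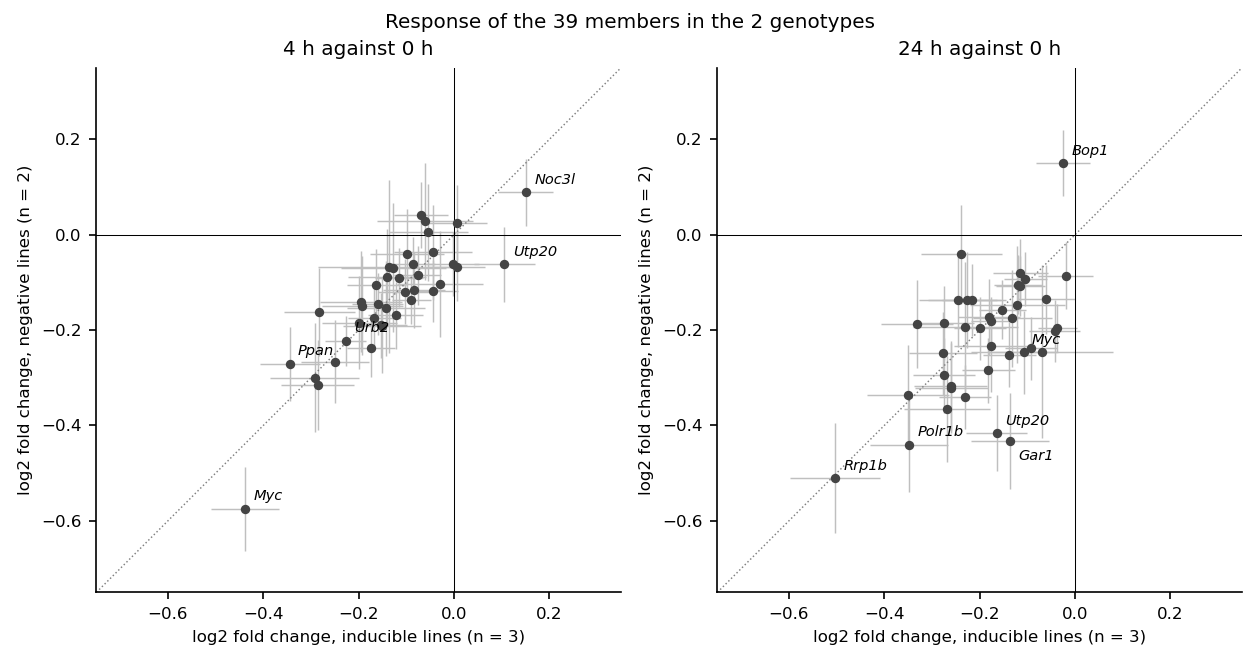
Log2 fold change ± SE of the 39 members in inducible lines (x axis, n = 3) and negative lines (y axis, n = 2) at 4 h and 24 h of doxycycline; the dotted line marks equal change. At 4 h 32 members and at 24 h 38 members lie below 0 in both genotypes, and Bop1 lies above 0 in negative lines at 24 h.

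The 2 genotypes share no library, so their responses can be set side by side. Across the 39 members the log2 fold changes of inducible and negative lines had Pearson's r of 0.85 and Spearman's rho of 0.86 at 4 h, and 0.57 and 0.49 at 24 h. This is a description across genes, which are not independent replicates and share the libraries of a genotype. For the 9345 features with a mean of at least 10 CPM the same r was 0.48 at 4 h and 0.73 at 24 h, and over all 16462 tested features it was -0.01 and 0.29. Both genotypes were lower at 4 h for 32 members (82.1%) and at 24 h for 38 members (97.4%), beside 36.7% and 33.9% of the features at 10 CPM or more and 30.8% and 37.0% of all tested features.

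Other genes of the same pathways were taken from lists chosen from textbook knowledge, with earlier results of these data known. At 24 h over both genotypes, 7.83% of all tested features were called lower and 10.9% higher. Of 42 other small subunit assembly genes, 12 were lower and 1 was higher at 24 h over both genotypes (median -0.10), led by Utp15 (-0.24), Wdr3 (-0.27), Wdr75 (-0.20) and Rcl1 (-0.22). Of 40 other large subunit assembly genes, 13 were lower and 1 higher (median -0.10), the higher one being Pwp1 (0.46, edgeR adjusted p = 3.02e-06), and the lower ones led by Sdad1 (-0.22), Rrp8 (-0.29) and Rrp15 (-0.23). Pwp1 was also the 1 gene of its list called higher at 4 h, by 0.43 in inducible and 0.48 in negative lines, beside Surf6 as the 1 called lower over both genotypes (-0.22). At 4 h the small subunit list held Utp4 (-0.19) and Rcl1 (-0.23) as called over both genotypes. Of all features, 0.383% were called lower and 0.528% higher there.

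Of 14 other RNA polymerase I genes, 3 were lower and 1 higher at 24 h, where 7.83% of all features were called lower and 10.9% higher. Tcof1, whose protein treacle supports ribosomal DNA transcription, changed by -0.42, the polymerase subunit gene Cd3eap by -0.33 and Taf1d by -0.34, whereas Taf1b, another gene of the promoter selectivity factor, changed by 0.31. At 4 h 0 of the 14 were called by edgeR without the block, where 5 had an unadjusted p below 0.05 and DESeq2 called 2 lower. With the block 3 were, among them Ubtf (-0.19) and Cd3eap (-0.32) as lower, where 4.92% of all features were called lower and 3.75% higher.

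Most genes of the ribosomal proteins themselves were not called. Of 78 cytosolic ribosomal protein genes, 1 passed at 24 h over both genotypes, Rps28 (0.12, edgeR adjusted p = 0.049). There 10.9% of all features were called higher and 7.83% lower. At 4 h 0 were called by edgeR or by DESeq2, with 0 and 1 at an unadjusted p below 0.05. Their median log2 fold change was 0.02 at 24 h and -0.01 at 4 h. With the block 6 were higher and 3 lower at 24 h, where 20.7% of all features were called higher and 15.4% lower. At 4 h the block called 1 lower, Rpl35 (-0.12), against 4.92% of all features.

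Among 24 genes for MYC partners and regulators, 3 were higher and 5 lower at 24 h, where 10.9% of all features were called higher and 7.83% lower. Mxd4, which encodes an antagonist that competes with MYC for MAX, was higher by 0.59 (edgeR adjusted p = 0.000159), and was called in each genotype (0.53 and 0.65). Mycl, a paralogue of Myc, was lower by -0.73, Ruvbl2, a helicase that binds MYC, by -0.25, and Mycbp was higher by 0.26. From 4 h to 24 h, the first by adjusted p were Mxd4 (0.51) and Mlxip (0.32) as higher. Mxi1 (-0.36, edgeR adjusted p = 0.00664) and Ruvbl1 (-0.21) were lower at that step. Of all features, 11.3% were called higher and 8.24% lower there. At 4 h the kinase gene Pim1 was the 1 called, by 0.35 (edgeR adjusted p = 0.0307), where 0.528% of all features were called higher.

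Of 30 other known targets of MYC, 15 were lower and 5 higher at 24 h (median -0.17), against the same 7.83% and 10.9% of all features. Tfap4 (-0.77), Cad (-0.44), which starts pyrimidine synthesis, and Prmt5 (-0.15) were lower, and Odc1 (0.39), the first enzyme of polyamine synthesis, was higher. At 4 h 1 of the 30 was called, Cdc25a (-0.27), where 0.383% of all features were called lower. Proliferation genes moved with the members as well: 21 of 30 were lower at 24 h and 0 higher (median -0.26), with Aurkb (-0.38), Rrm2 (-0.38), Cdc6 (-0.52) and Mcm6 (-0.28) first by adjusted p. Their summed level at 0 h was 7920 to 8340 CPM in inducible and 8120 to 8140 CPM in negative lines. At 4 h it was already below every 0 h library, at 7360 to 7860 and 7400 to 7750 CPM. At 24 h it was 6920 to 8080 and 7000 to 7080 CPM. With the block, Cdc6 (-0.33) and Ccnd1 (-0.22) were called lower at 4 h over both genotypes, where 4.92% of all features were. Duct markers moved too: Krt8 (0.55) and Krt18 (0.52) were higher at 24 h and Onecut1 (-0.24) lower. Their summed level was 10200 to 13400 CPM over the 0 h and 4 h libraries and 14700 to 17300 CPM at 24 h, and Krt8 and Krt18 made up most of it. Without these 2 genes the sums were 4210 to 5070 CPM and 5140 to 5930 CPM. The part of either list in the change of the members was not tested, and in bulk libraries fewer cells of a kind and less RNA per cell cannot be told apart.

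**Figure D5:**
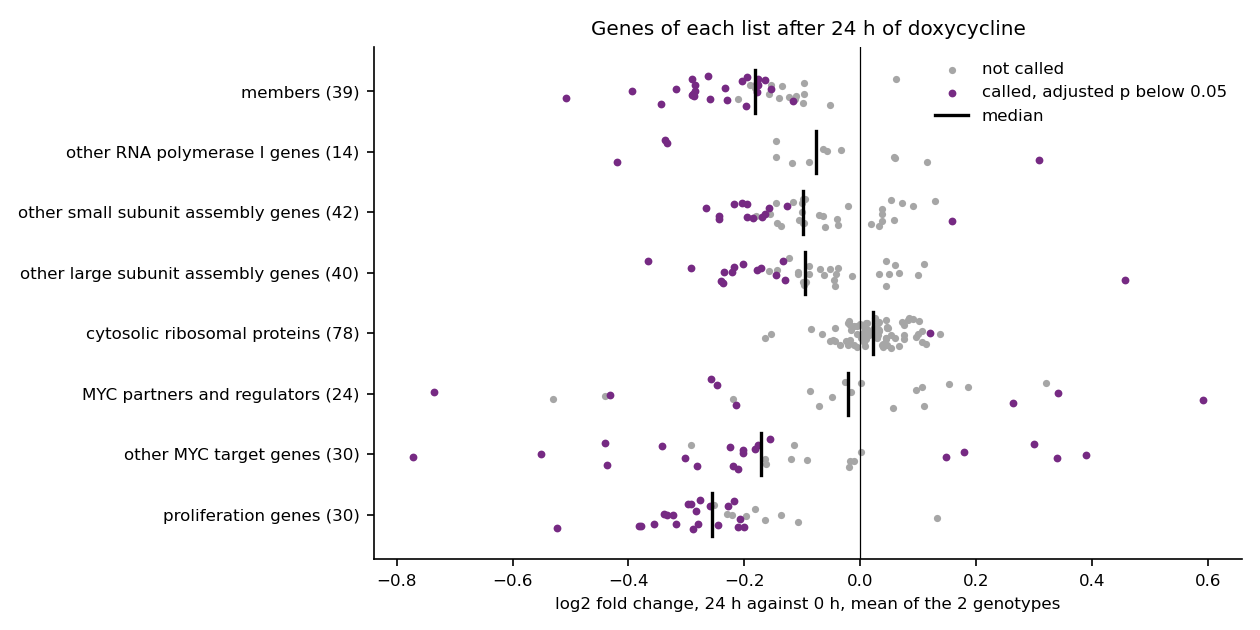
Log2 fold change from 0 h to 24 h, averaged over the 2 genotypes, for each gene (points) of the 39 members and of 7 further lists, with list sizes in brackets; purple points were called (edgeR adjusted p below 0.05) and black bars are medians. Members, other MYC targets and proliferation genes have medians of -0.18, -0.17 and -0.26, and cytosolic ribosomal proteins one of 0.02.

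The E-box CACGTG, which reads the same on both strands, was searched in the window from 250 bases before to 50 bases after each RefSeq gene start (GRCm38.p6). Of the 33 members with an entry, 7 held it (21.2%), beside 8.09% of all 27025 genes and 10.9% of the 11531 tested genes with an entry; Myc, Fbl, Rrp12, Rrs1, Bop1 and Npm1 had no entry. Among the lists, 23.5% of 34 other small subunit genes, 21.2% of 33 other large subunit genes, 15.4% of 13 other RNA polymerase I genes, 34.8% of 23 MYC partners and regulators, 44.4% of 27 other MYC targets, 10.5% of 57 cytosolic ribosomal protein genes and 4.17% of 24 proliferation genes held it. The stretches around the motif are shown for these 7 members, and they were chosen after the values were seen. All 7 members were called lower at 24 h in at least 1 fit. That does not set them apart, as with the block 36 members were called lower at 24 h over both genotypes. Capitals mark the E-box.
Utp20, chr10:88826765-88826789, minus strand: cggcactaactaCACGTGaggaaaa
Wdr43, chr17:71616220-71616249, plus strand: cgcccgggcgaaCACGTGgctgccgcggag
Tsr1, chr11:74898092-74898121, plus strand: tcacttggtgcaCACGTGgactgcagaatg
Nop2, chr6:125131793-125131858, plus strand: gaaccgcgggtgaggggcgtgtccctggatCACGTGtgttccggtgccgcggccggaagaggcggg
Pes1, chr11:3963965-3963994, plus strand: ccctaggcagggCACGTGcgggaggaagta
Grwd1, chr7:45830740-45830767, minus strand: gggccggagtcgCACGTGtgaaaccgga
Mybbp1a, chr11:72441355-72441376, plus strand: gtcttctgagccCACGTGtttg

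In Nop2 the motif began 60 bases before the RefSeq start, and in the other 6 it lay at bases 3 (Pes1) to 41 (Mybbp1a) of the transcript. Of these 7 members, 1 was called lower at 4 h over both genotypes (Tsr1) and 4 at 24 h (Utp20, Nop2, Grwd1 and Mybbp1a), with a median log2 fold change of -0.23 at 24 h. The 26 members with an entry but without the motif had 2 and 16 calls and a median of -0.19. Ppan and Urb2, the members called with Myc at 4 h in inducible lines, held no CACGTG, which says only that these letters are not in this window. Their 250 bases before the start are shown for that reason, and they have 52.0% and 76.0% G and C.
Ppan, chr9:20887925-20888174, plus strand: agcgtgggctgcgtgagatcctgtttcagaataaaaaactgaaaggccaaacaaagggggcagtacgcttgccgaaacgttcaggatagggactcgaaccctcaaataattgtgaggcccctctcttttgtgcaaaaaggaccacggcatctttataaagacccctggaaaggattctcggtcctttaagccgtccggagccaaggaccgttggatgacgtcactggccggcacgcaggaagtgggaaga
Urb2, chr8:124021247-124021496, plus strand: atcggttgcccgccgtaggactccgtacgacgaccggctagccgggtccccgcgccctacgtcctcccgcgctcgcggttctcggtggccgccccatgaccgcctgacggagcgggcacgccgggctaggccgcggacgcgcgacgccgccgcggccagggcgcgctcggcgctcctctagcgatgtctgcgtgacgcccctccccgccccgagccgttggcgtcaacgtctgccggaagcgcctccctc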

How the data were processed

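The 15 libraries were made from ribosomal RNA-depleted total RNA and sequenced in pairs. The authors deposited estimated counts and TPM for 109304 transcripts in each library, made with kallisto 0.43.1 and the mouse build GRCm38, per the submitters' processing notes. DESeq2 1.18.1 and DESeq stand in those notes as well. The sources used here give neither the annotation release nor the strand setting.

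Here the deposited estimated counts were summed per gene with GENCODE M21, kept with 22 added sequences and rounded, and the deposited TPM were summed likewise. The 1295 transcripts without a gene held 0.56% to 0.59% of counts. Genes passing edgeR's filterByExpr (16462, with 99.98% of counts) were scaled by TMM (factors 0.966 to 1.023) and fitted with edgeR 4.0.16 in R 4.3.3 by the quasi-likelihood F test with 6 group means over all 15 libraries. Benjamini-Hochberg adjustment ran over all tested features and a feature was called below 0.05. The biological coefficient of variation was 0.157. Errors are SE from the fit, intervals are 95%, and changes between genotypes were contrasts of the same fit. CPM values are scaled by TMM.

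The same line, named in each library's title, links its 3 libraries. Deviations of libraries from their group means correlated within lines by 0.381 to 0.476 in inducible lines, and by 0.238 to 0.285 in negative lines, where a group of 2 gives both lines the same values. The line was therefore also fitted as a block (coefficient of variation 0.058), and for 0 h as a random block in limma 3.58.1. The other alternatives were DESeq2 1.42.0, RLE scaling, other filters, an effective-length offset, the compared groups alone and each library left out. Leaving out each line from the block fit was chosen after seeing the data.

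All 39 members are accounted for. Values per library are given for Myc and for members called between times within 1 genotype without the block, at most 8 a comparison by adjusted p; members called with the block alone are named with that fit's log2 change. From each further list at most 4 genes a comparison are named, by adjusted p, or 2 with the block where none was called without it. The rule for promoters (Myc, then members called at 4 h in inducible lines that hold an E-box) gave none, so those printed were chosen after their values were seen. The members and lists were chosen with earlier results of these data known. Before use, the fit was run on counts simulated from these libraries with known changes. No outcome of that run is given here, so it does not show how well changes of the size reported are found.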

Additional observations from a re-analysis of the deposited data

Results flagged for a closer look

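The estimated 4 h change of Utp20 had opposite signs in the 2 genotypes: its level was higher than at 0 h in A217, A220 and A225 and lower in A218 and A223. The log2 change was 0.11 in inducible lines (95% interval -0.034 to 0.245) and -0.06 in negative lines (-0.233 to 0.109). Both intervals include 0, and Polr1a, Nop58, Bop1 and Npm1 also had estimates of opposite sign. The difference between the genotypes' responses was 0.17 on the log2 scale (95% interval -0.05 to 0.39), and edgeR's test of that difference gave an adjusted p of 1.0, and 0.991 with the line as a block. No group of this study holds 4 or more libraries, so single libraries that stand apart within a group were not looked for.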

How the results depend on the processing

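The counts of members called depended on the fit more than their directions did. With the replicate block, which pairs the libraries of a line, 10 and 24 members were called at 4 h and 24 h in inducible lines, 6 and 25 in negative lines, 19 at 4 h over both genotypes and 16 between 4 h and 24 h. DESeq2 called 5 and 19 in inducible lines, 3 and 18 in negative lines and 12 at 4 h over both. With an effective-length offset the counts were 1 and 5 in inducible lines, 0 at 4 h in negative lines and 3 at 4 h over both. A fit of the compared groups alone gave 0 and 0 in inducible lines, 0 and 22 in negative lines and 5 between 4 h and 24 h, with fewer libraries behind the spread. Requiring 1 CPM in 3 libraries gave 11 at 24 h in negative lines. Without 1 library the counts were 0 to 1 and 0 to 25 in inducible lines, 0 in negative lines at either time (a group of 1 is then assumed to vary like the others), 1 to 5 and 16 to 29 over both genotypes, and 3 to 13 between 4 h and 24 h. Without 1 line the block gave 2 to 10 and 13 to 27, 1 to 7 and 7 to 27, 9 to 15 and 31 to 34, and 10 to 17. No called change of a named member reversed under any alternative, and the block ended no call of the unpaired fit. The median of the members stayed below 0 throughout, at -0.148 to -0.094 and -0.238 to -0.159 in inducible and -0.135 to -0.119 and -0.22 to -0.192 in negative lines. The causes of these shifts were not tested, except that fewer libraries leave fewer degrees of freedom. The number of lines, 3 and 2, limits the precision.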
